A study of Homo sapiens with 4 samples.

Results

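Deoxynucleotides, the building blocks of DNA, are made and balanced by a small set of enzymes, and 9 genes for these enzymes were followed here: RRM1, RRM2, TYMS, TK1, DUT, DCK, DCTD, DTYMK and SAMHD1. The rule names them by their place in the pathway and uses no measured value, but the set was proposed with earlier results of these data known. Each matched 1 of the 60880 genes listed, and 9 of 9 were among the 15626 genes that passed the filter on low counts. RNA-Seq was performed on 4 libraries of human prostate cancer cells, 2 per group, to ask how the transcriptome differs when UGT2B17 is lost. UGT2B17 is an enzyme that joins glucuronic acid to androgens.

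LNCaP95 was derived from the prostate cancer line LNCaP and grows in the absence of androgen, and its genotype is given as WT. LN95(KO) carries a CRISPR knockout of UGT2B17. Cells of both groups were kept in RPMI1640 with charcoal-stripped serum, which is low in steroids, and none were treated. Whether LN95(KO) is 1 clone or a pool is not given in the sources used here, so differences from the choice of clone cannot be told apart from the knockout. The series' own design text calls the knockout line a derivative of LNCaP, whereas every library carries LN95 as its line. Nothing says that the replicates came from separate cultures, so the p-values measure the spread between these libraries, which may be technical.

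Ribonucleotide reductase makes deoxynucleotides by reducing ribonucleotides. Its large subunit RRM1 pairs with RRM2, which is made in S phase, or with RRM2B, which is induced by p53 and serves cells outside S phase. Thymidylate is formed by TYMS from dUMP, which DUT and DCTD provide, and is also salvaged from thymidine by TK1. DCK salvages the other deoxynucleosides, DTYMK adds the next phosphate to thymidylate, and SAMHD1 breaks deoxynucleoside triphosphates down. RRM2, TYMS and TK1 are known as genes of dividing cells whose transcription depends on E2F factors. That of RRM2 and TK1 is also known to depend on CCAAT-binding factors.

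The short promoter stretches shown here hold the matches found to letters of such factors in the 5 members with the largest increases. Left out is 1 CCAAT box of RRM2, described below. No member of the 5 held both kinds: RRM2, TK1 and RRM1 held no E2F-type match, and TYMS and DUT no CCAAT box. They are RefSeq sequences on GRCh38.p14, a later build than the counts, and each has 30 bases that lie before a RefSeq transcript start, written 5′ to 3′ along the gene. Capitals mark the motif. RRM2 held 3 CCAAT boxes in 1 of its 2 windows (plus strand, chr2:10122604-10122633, chr2:10122634-10122663 and chr2:10122661-10122690), which began 123, 93 and 66 bases before the start. Its other window held 1 CCAAT box, at the upstream end of the window, and this is the box left out.
RRM2 at 123: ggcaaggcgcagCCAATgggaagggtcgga
RRM2 at 93: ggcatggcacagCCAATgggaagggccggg
RRM2 at 66: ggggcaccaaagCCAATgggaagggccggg

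TK1 held 2 CCAAT boxes, which lie on the opposite strand of the gene and so read ATTGG, in 1 of its 2 windows (minus strand, chr17:78187112-78187141 and chr17:78187081-78187110). TYMS held 1 E2F-type match (plus strand, chr18:657603-657632), and DUT held 2 in 1 of its 4 windows (plus strand, chr15:48332144-48332173 and chr15:48332159-48332188). The window of RRM1 held 1 CCAAT box (plus strand, chr11:4094645-4094674) and 1 CHR match, and the same DUT window held 2 CHR matches. The DUT stretches overlap each other, as do the last 2 of RRM2, but the motifs in capitals do not.
TK1 at 77: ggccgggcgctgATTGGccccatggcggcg
TK1 at 46: ggccggctcgtgATTGGccagcacgccgtg
TYMS at 39: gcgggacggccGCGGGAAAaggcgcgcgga
DUT at 42: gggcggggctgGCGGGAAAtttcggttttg
DUT at 27: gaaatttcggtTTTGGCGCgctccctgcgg
RRM1 at 28: gcatgtccatatCCAATggggcccatggga

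Windows ran from 250 bases before to 50 bases after each start. Both strands were searched for E2F-type letters (TTTGGCGC, TTTCCCGC, TTTGGCGG, TTTCCCGG, TTTCGCGC and TTTGCCGC), the CCAAT box (CCAAT) and the cell cycle element CHR (TTTGAA and TTCGAA). Of all 35116 windows, 5.33% held an E2F-type match, 34.6% a CCAAT box and 16.4% a CHR match. At least 2 CCAAT boxes were in 10.8% of windows, and at least 3 in 3.26%. Of the other members, DTYMK held matches to each of the 3 motifs, SAMHD1 held 2 CCAAT boxes, DCK held 1 E2F-type match, and the windows of DCTD held no match. Where a match is missing, it says only that these letters are not in these windows. A match is a description of letters, and the binding of a factor was not measured.

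The libraries held 17330338 to 18813193 gene reads each. UGT2B17 checked the labels, at 2788 and 2748 counts in LNCaP95 against 21 and 20 in LN95(KO) (log2 fold change −7.04, SE 0.10, edgeR adjusted p = 1.18e-18). Unaligned reads were 3.85% and 3.96% of the entries for LNCaP95 against 8.05% and 7.71% for LN95(KO), and the part of this difference in the results was not tested. All 10 luminal prostate markers were expressed, with summed levels of 3732 to 3733 CPM (read counts scaled to a common library size) in LNCaP95 and 4038 to 4219 CPM in LN95(KO). Markers of other cells were low. The 6 fibroblast markers summed to 31.2 to 32.4 CPM against 35.02 to 38.1 CPM, with DCN at 0, the 4 basal markers to 0.162 to 0.218 against 1.13 to 1.53 CPM, the 5 blood markers to 0.108 to 0.164 against 0.274 to 0.339 CPM with CD3E at 0, and the 5 neuroendocrine markers to 6.50 to 6.93 against 2.30 to 2.49 CPM with CHGA at 0. The part of these markers in the results was not tested.

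Deoxynucleotide supply genes were mostly higher in LN95(KO) than in LNCaP95. Of the 9 genes, 5 were called higher (RRM2, TK1, TYMS, RRM1 and DUT), at an edgeR adjusted p under 0.05 and a fold change over 2, and 0 were called lower. Among all genes tested, 8.86% were called higher and 9.13% lower by the same rule. Without the fold criterion, 8 of the 9 were higher and 1, DCTD, was lower, where 29.8% of all genes were higher and 30.1% lower. The groups did not overlap in CPM for any of the 9 genes, a state shared by 79.8% of all genes tested. The median log2 fold change of the 9 genes was 1.11, and that of all genes tested was −0.01. In bulk RNA, a larger share of cells in S phase and more RNA per cell cannot be told apart.

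**Figure D1:**
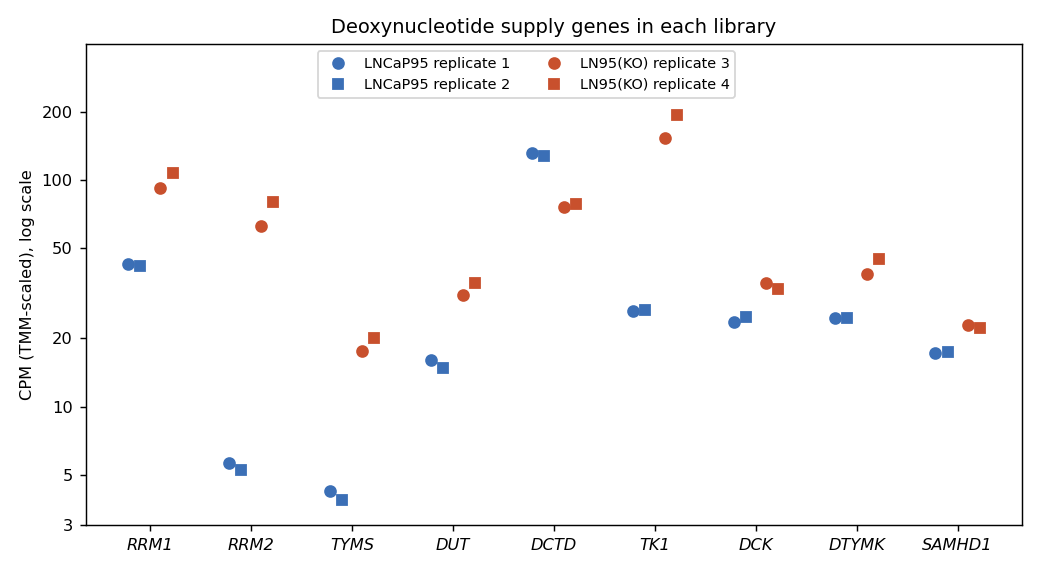
Levels of the 9 genes in CPM (TMM-scaled, log axis), with 1 point per library, blue for LNCaP95 and red for LN95(KO). RRM2, TYMS and TK1 show the widest gaps between groups, and DCTD is the only gene of the 9 that is higher in LNCaP95.

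RRM2, the small subunit that limits ribonucleotide reductase in S phase (ENSG00000171848.14_4, GRCh37 chr2:10260825-10351851, plus strand), changed most among the 9. It had 104 and 96 counts in LNCaP95 against 1116 and 1470 in LN95(KO), or 5.44 ± 0.278 and 71.8 ± 12.4 CPM (mean ± SD, n = 2 per group). Both LN95(KO) libraries lay far above both LNCaP95 libraries. This was a log2 fold change of 3.72 (SE 0.13, 95% interval 3.43 to 4.01, edgeR adjusted p = 6.44e-11), a 13.2-fold increase.

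RRM1, the large subunit that carries the catalytic site (ENSG00000167325.14_3, chr11:4115937-4160162, plus strand), was also called higher. Its counts were 789 and 766 in LNCaP95 against 1631 and 1970 in LN95(KO), or 42.3 ± 0.655 CPM in LNCaP95 against 92.2 and 108 CPM (SD 11.2) in LN95(KO). The groups did not overlap. The log2 fold change was 1.24 (SE 0.07, interval 1.09 to 1.40, edgeR adjusted p = 1.29e-10), a 2.37-fold increase.

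RRM2B, the alternative small subunit, had 1328 and 1329 counts in LNCaP95 against 1328 and 1281 in LN95(KO). No difference was detected, and the log2 fold change of 0.01 had an interval of −0.12 to 0.13 (edgeR adjusted p = 0.929). Per kilobase of exon, RRM2 stood at 0.0461 and 0.0426 of RRM2B in LNCaP95 and at 0.495 and 0.676 in LN95(KO). The ratio of RRM2 to RRM1 was 0.0610 and 0.0580 in LNCaP95 against 0.316 and 0.345 in LN95(KO), a 5.56-fold higher mean. Both ratios were thus higher in each LN95(KO) library than in either LNCaP95 library. In the annotation used here, later than the one counted on, the exons of RRM2 span 9153 bases and its longest transcript 3673, so the level of these ratios depends on the length used, whereas the fold between groups does not. With the longest transcript, the mean ratio of RRM2 to RRM2B was 0.0978 in LNCaP95 and 1.29 in LN95(KO).

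Thymidylate synthesis from dUMP was led by TYMS, the enzyme that 5-fluorouracil inhibits (ENSG00000176890.15_2, chr18:657653-673578, plus strand). TYMS had 78 and 71 counts in LNCaP95 against 312 and 367 in LN95(KO), or 4.05 ± 0.247 and 18.9 ± 1.76 CPM. The 2 groups were apart. TYMS thus rose by a log2 fold change of 2.22 (SE 0.13, interval 1.94 to 2.50, edgeR adjusted p = 1.72e-10), a 4.65-fold increase.

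Counting at the TYMS locus did not use strand. Exons of ENOSF1 and TYMSOS, both on the minus strand, cover 1160 of the 2421 exon bases of TYMS (967 and 193 bases), and htseq sets aside reads that fall on more than 1 gene. ENOSF1, a gene that runs antisense into the end of TYMS, had 645 and 636 counts in LNCaP95 against 750 and 859 in LN95(KO) and rose by 0.36 on the log2 scale (edgeR adjusted p = 0.000407). TYMSOS, an RNA from the opposite strand at the start of TYMS, had 30 and 24 counts against 65 and 88 and was called higher (log2 fold change 1.53, SE 0.24, edgeR adjusted p = 2.70e-05). All 3 genes of the locus were higher in LN95(KO), and reads of overlapping genes could not be told apart there.

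**Figure D2:**
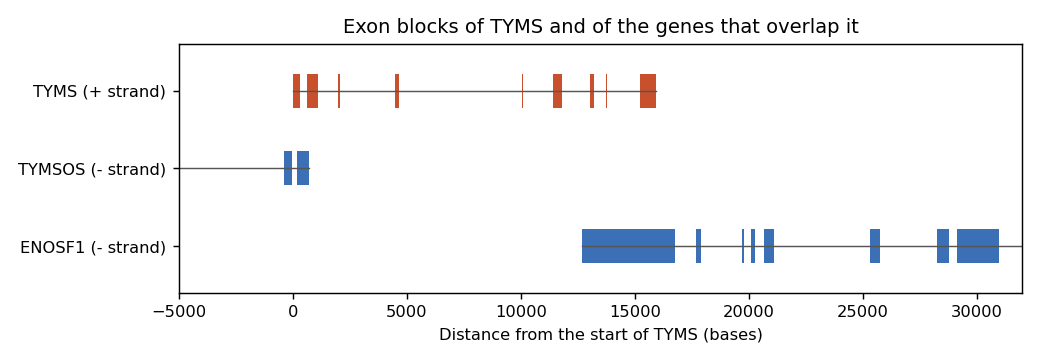
Exon blocks of TYMS, TYMSOS and ENOSF1, drawn as boxes by distance in bases from the start of TYMS, with lines for the span of each gene (TYMSOS and ENOSF1 run past the edges). TYMSOS overlaps the first exons of TYMS and ENOSF1 the last, which together is 47.9% of TYMS exon bases.

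DUT removes dUTP and yields the dUMP that TYMS uses (ENSG00000128951.13_3, chr15:48623208-48635570, plus strand). It had 296 and 272 counts in LNCaP95 against 553 and 643 in LN95(KO), or 15.4 ± 0.839 and 33.2 ± 2.82 CPM. The groups did not overlap. Its log2 fold change of 1.11 (SE 0.09, interval 0.91 to 1.30, edgeR adjusted p = 1.45e-08), a 2.15-fold increase, was the smallest of the 5 called. The interval reaches below a 2-fold change, and a test against that fold (edgeR's glmTreat) did not call DUT (adjusted p = 0.325). DUT-AS1, which covers 14.5% of DUT exon bases, had 11 and 12 counts against 13 and 10.

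DCTD, which makes dUMP by deaminating dCMP (ENSG00000129187.14_5, chr4:183811213-183839089, minus strand), was the single member that fell. Its counts were 2439 and 2348 in LNCaP95 against 1344 and 1438 in LN95(KO), or 130 ± 2.79 and 77.4 ± 2.03 CPM. Both LN95(KO) libraries lay below both LNCaP95 libraries. The log2 fold change was −0.75 (SE 0.05, interval −0.86 to −0.64, edgeR adjusted p = 2.05e-09), a 1.68-fold decrease that did not pass the fold criterion. The 2 routes to dUMP thus moved apart at the level of RNA, with DUT higher and DCTD lower.

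DTYMK, the kinase for thymidylate from either route (ENSG00000168393.12_3, chr2:242615162-242626359, minus strand), had 454 and 451 counts in LNCaP95 against 685 and 823 in LN95(KO). These are 24.6 ± 0.0183 and 41.9 ± 4.52 CPM. The gene was higher in both LN95(KO) libraries, with a log2 fold change of 0.77 (SE 0.08, interval 0.59 to 0.94, edgeR adjusted p = 4.52e-07), a 1.70-fold increase below the fold criterion.

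Salvage was led by TK1, the cytosolic thymidine kinase (ENSG00000167900.11_2, chr17:76170172-76183314, minus strand). TK1 had 490 and 489 counts in LNCaP95 against 2711 and 3547 in LN95(KO), or 26.6 ± 0.106 and 174 ± 29.1 CPM. Of the 9 genes it had the widest SD in LN95(KO), and the groups were still far apart. The log2 fold change was 2.71 (SE 0.12, interval 2.42 to 2.99, edgeR adjusted p = 6.52e-07), a 6.53-fold increase.

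DCK, which activates deoxycytidine and drugs such as gemcitabine (ENSG00000156136.9_5, chr4:71858255-71896631, plus strand), had 438 and 457 counts in LNCaP95 against 621 and 606 in LN95(KO). These are 24.3 ± 0.863 and 34.2 ± 1.33 CPM, with no overlap between groups. DCK rose by a log2 fold change of 0.49 (SE 0.08, interval 0.32 to 0.65, edgeR adjusted p = 4.06e-05), a 1.40-fold increase. MOB1B, whose exons cover 6.41% of DCK exon bases, had 588 and 542 counts against 663 and 620 (log2 fold change 0.22, edgeR adjusted p = 0.0250).

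For the mitochondrial salvage kinases no difference between groups was detected. TK2, which phosphorylates thymidine and deoxycytidine in mitochondria, had 370 and 426 counts in LNCaP95 against 404 and 371 in LN95(KO) (log2 fold change −0.01, interval −0.21 to 0.20, edgeR adjusted p = 0.965). DGUOK, which phosphorylates purine deoxynucleosides there, had 665 and 653 counts against 652 and 742 (log2 fold change 0.11, interval −0.04 to 0.27, edgeR adjusted p = 0.200). Per kilobase, TK1 was 7.42 and 6.43 times TK2 in LNCaP95 and 37.6 and 53.6 times TK2 in LN95(KO).

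SAMHD1, which cleaves deoxynucleoside triphosphates and so opposes the reductase (ENSG00000101347.9_4, chr20:35518632-35580296, minus strand), changed least among the 9. It had 317 and 319 counts in LNCaP95 against 406 and 405 in LN95(KO), or 17.3 ± 0.171 and 22.6 ± 0.527 CPM. The replicates of each group were close and the groups did not overlap. The log2 fold change was 0.38 (SE 0.09, interval 0.19 to 0.57, edgeR adjusted p = 0.00137), a 1.30-fold increase. The ratio of RRM2 to SAMHD1 per kilobase was 0.388 and 0.356 in LNCaP95 against 3.25 and 4.30 in LN95(KO), so the order of the pair was opposite in the 2 groups.

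**Figure D3:**
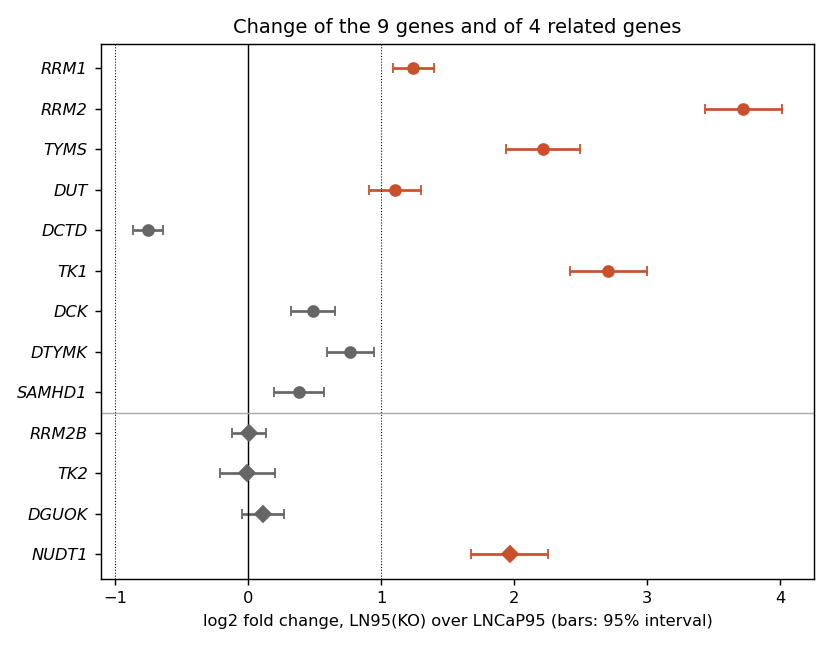
Log2 fold change of LN95(KO) over LNCaP95 with its 95% interval for the 9 genes (circles) and 4 related genes (diamonds), in red where called, with dotted lines at a 2-fold change. RRM2, TK1, TYMS and RRM1 lie wholly beyond the dotted line, DUT straddles it, and RRM2B, TK2 and DGUOK lie across 0.

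Reads can be split between a gene and its near-identical copies, so sequence shared with other transcripts was counted. Of the 100-base windows of the longest RRM2 transcript, 9 of 3574 occur in another transcript, that of the pseudogene RRM2P3. TYMS, TK1, RRM1, DUT, DCTD, DTYMK and SAMHD1 shared 0 such windows with transcripts of other genes on the same strand, and DCK shared 100 of 2584, with MOB1B. SAMHD1 shares 9.86% of its exon bases with TLDC2, which had 1 and 1 counts in LNCaP95 against 0 and 0 in LN95(KO), and RRM1 shares 1.49% with RRM1-AS1, which had 0 or 1 count in every library.

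Levels of different genes were compared per kilobase of exon. In LNCaP95, DCTD was highest of the 9 (38.9 CPM per kilobase), followed by TK1 (14.4), DTYMK (10.3), RRM1 (9.99), DCK (7.85) and DUT (4.20). TYMS (1.67) and SAMHD1 (1.60) overlapped in range, and RRM2 was lowest (0.594). In LN95(KO), TK1 was highest (94.2 CPM per kilobase), and RRM1 (23.6) and DCTD (23.1) overlapped. DTYMK (17.5) and DCK (10.7 to 11.3) came next, DUT (9.05), RRM2 (7.85) and TYMS (7.79) overlapped their neighbours, and SAMHD1 was lowest (2.08). With the longest transcript as the length, RRM2 was again lowest in LNCaP95 (1.48) and stood above DUT, DCK, TYMS and SAMHD1 in LN95(KO) (19.5), and DCTD and TK1 were again highest in LNCaP95 and LN95(KO), respectively. Other positions depended on the length. With the longest transcript in LNCaP95, DTYMK (22.6) was above TK1 (15.8) and SAMHD1 (3.15) above TYMS (2.51). With exon bases not shared with another gene, TYMS was at 3.21 in LNCaP95, above SAMHD1, and at 14.96 in LN95(KO), above DCK, DUT and RRM2.

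**Figure D4:**
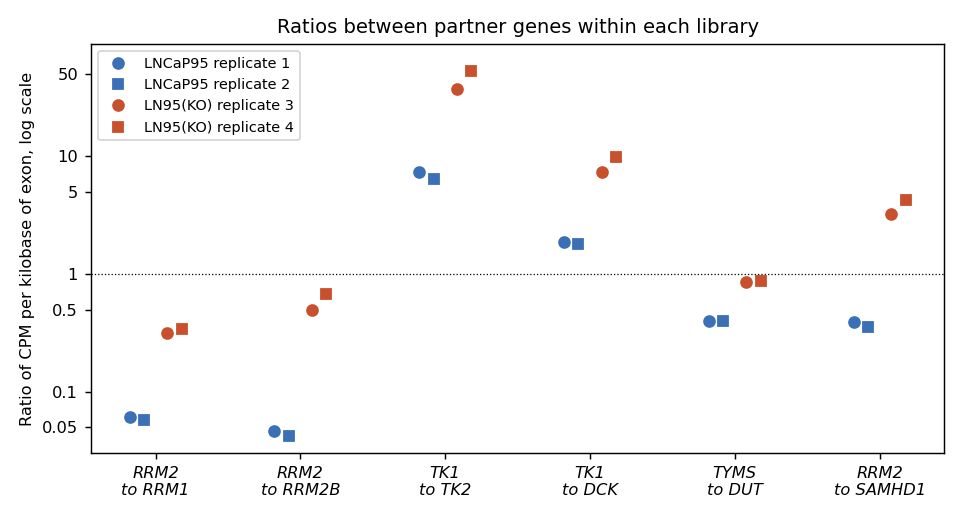
Ratios between partner genes per kilobase of exon (log axis), formed within each library, with blue for LNCaP95, red for LN95(KO) and a dotted line at 1. Each of the 6 ratios is higher in both LN95(KO) libraries, from 2.16-fold for TYMS to DUT up to 13.2-fold for RRM2 to RRM2B, and RRM2 to SAMHD1 crosses 1.

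The rest of the pathway was read from lists of genes by role, against the shares over all genes tested given above (29.8% higher and 30.1% lower by adjusted p, 8.86% called higher and 9.13% called lower). Ribonucleotide reductase takes electrons from thioredoxin and glutaredoxin. Of the genes listed for these systems, 7 of 7 rose (edgeR adjusted p under 0.05), with a median log2 fold change of 0.65. The 7 include TXN2, TXNRD2 and GLRX2, which are mitochondrial. GLRX, a glutaredoxin, was the 1 called, with 139 and 92 counts in LNCaP95 against 378 and 442 in LN95(KO) (log2 fold change 1.86, SE 0.14, edgeR adjusted p = 4.67e-09). GSR, which regenerates glutathione, rose by a log2 fold change of 0.96. A call of 1 in 7 is near the share over all genes.

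The folate cycle feeds TYMS with its methyl donor. Of 14 genes tested of the 15 listed, 4 rose and 5 fell, with a median log2 fold change of −0.04, and 2 were called lower. The counts in both directions are near the shares over all genes. Those called were ALDH1L2 (2005 and 1920 counts in LNCaP95 against 805 and 794 in LN95(KO), log2 fold change −1.26, SE 0.06) and MTHFD2L (651 and 646 counts against 284 and 290, log2 fold change −1.14, SE 0.08), both mitochondrial enzymes of the cycle. MTHFD2L was not called against a 2-fold change (glmTreat adjusted p = 0.121). SHMT1, the cytosolic serine hydroxymethyltransferase, moved most among those that rose (0.88).

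The ribonucleotides that the reductase uses come from de novo synthesis. All 5 genes of de novo pyrimidine synthesis rose, with a median log2 fold change of 0.18, 0 were called, and CTPS2, a CTP synthase, moved most (log2 fold change 0.59). Of 13 genes of de novo purine synthesis, 7 rose and 2 fell, with a median of 0.35. IMPDH2, which commits IMP to guanine nucleotides, was the 1 called (1239 and 1317 counts against 2489 and 2924, log2 fold change 1.11), and 32.8% of its exon bases lie under another gene. A call of 1 in 13 is near the share over all genes, and IMPDH2 was not called against a 2-fold change (glmTreat adjusted p = 0.113). Of 8 kinases that act after the monophosphate, 3 rose and 2 fell. CMPK2, a mitochondrial UMP and CMP kinase, was the 1 called lower (67 and 91 counts against 32 and 45, log2 fold change −1.003, SE 0.23), and it was not called against a 2-fold change, without LNCaP95 replicate 2 or without LN95(KO) replicate 3.

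Among 16 tested genes of nucleotide breakdown and pool cleaning, 9 rose and 2 fell, with a median of 0.28. NUDT1, which removes oxidized purine deoxynucleotides, was called higher, from 90 and 85 counts in LNCaP95 to 295 and 375 in LN95(KO) (log2 fold change 1.97, SE 0.14, edgeR adjusted p = 1.38e-09). A call of 1 in 16 is near the share over all genes. Calls in this list numbered 2 without LNCaP95 replicate 1 and 3 without LN95(KO) replicate 3. CDA, which deaminates cytidine, had 0 reads in all libraries, where 3 counts correspond to 0.163 to 0.170 CPM. Of 5 nucleoside transporters tested of 8, 2 rose, 1 fell and 0 were called, with SLC29A1 at a log2 fold change of 0.63.

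RRM2, TK1 and TYMS proteins are also set by degradation, which RNA does not show. Of 5 genes listed for such turnover, 2 were called higher, and which of the 5 act on which protein was not tested. CCNF, the cyclin F that marks RRM2 for degradation, had 209 and 229 counts in LNCaP95 against 638 and 782 in LN95(KO) (log2 fold change 1.73, SE 0.10, edgeR adjusted p = 1.33e-10). CDC20, an activator of the anaphase-promoting complex, had 423 and 366 counts against 2316 and 2875 (log2 fold change 2.75, SE 0.10, edgeR adjusted p = 7.65e-11). FZR1, another activator of that complex, rose by a log2 fold change of 0.32 (edgeR adjusted p = 0.000741) and was not called. For CUL1 and SKP1 no difference was detected (log2 fold changes −0.002 and −0.04).

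The enzymes that use deoxynucleotides at the replication fork were mostly higher in LN95(KO) as well. Of 18 DNA polymerase, primase, clamp and clamp loader genes, 16 rose and 9 were called higher, with a median log2 fold change of 1.02, and 0 were called lower. POLE2, a subunit of polymerase epsilon, had the largest change (47 and 35 counts against 141 and 228, log2 fold change 2.20). PRIM1 and PRIM2 of primase (1.58 and 1.34), POLA2 and POLD1 of the polymerases (1.30 and 1.09), the clamp PCNA (1.11) and the clamp loaders RFC4, RFC3 and RFC2 (1.36, 1.25 and 1.05) were the others called. Against a 2-fold change 4 of the 9 were called, POLE2, PRIM1, RFC4 and RFC3, and the other 5 had glmTreat adjusted p of 0.187 to 0.806. Without LN95(KO) replicate 4, 6 were called, and without LN95(KO) replicate 3, 11. Of 6 genes of mitochondrial DNA synthesis, 3 rose and 0 were called, with POLG, the mitochondrial polymerase, at 0.54.

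**Figure D5:**
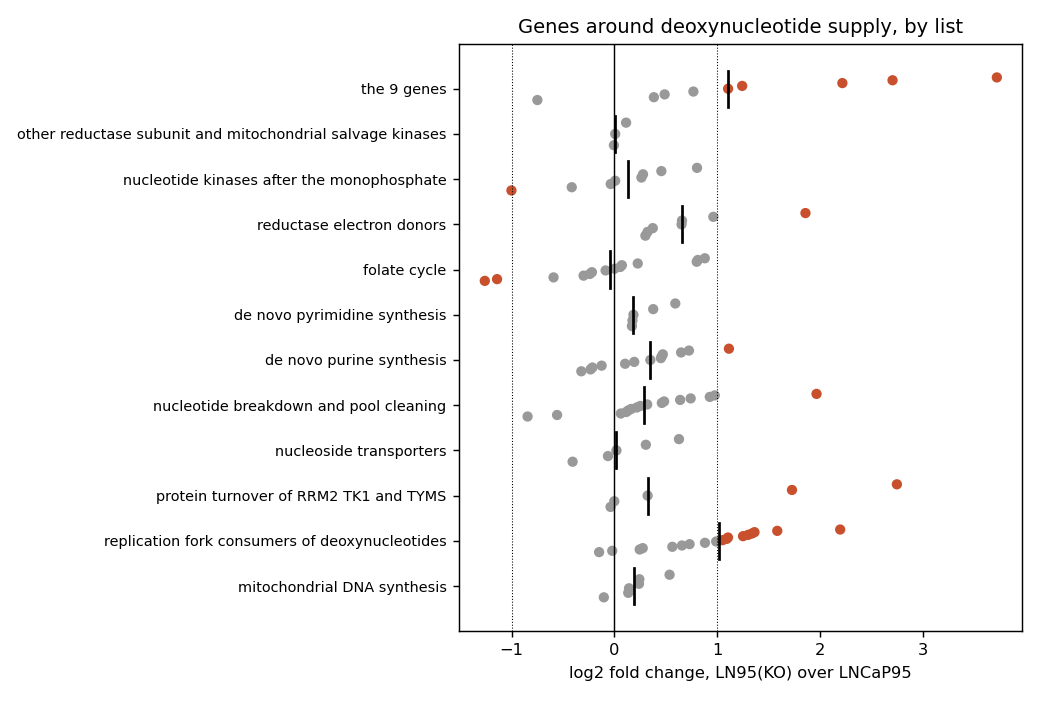
Log2 fold change of LN95(KO) over LNCaP95 for each tested gene, by list, with called genes in red, medians as black bars and dotted lines at a 2-fold change. The 9 supply genes (median 1.11) and the replication fork genes (1.02) lie furthest to the right, and the folate cycle spans both directions.

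The log2 difference between replicates was larger in size in LN95(KO) than in LNCaP95 for 9 of 9 genes. The gap was small for DCK (−0.079 against 0.072) and DCTD (0.053 against −0.044). Over all tested genes with a mean count of at least 100, the quartiles of this difference were −0.077 and 0.093 in LN95(KO). In LNCaP95 they were −0.067 and 0.064, so the wider spread was not particular to the 9. The share of all genes with a larger difference in LN95(KO) was not counted. Replicate 4 was above replicate 3 in CPM for 7 of the 9 genes, by a log2 difference of 0.35 for RRM2 and 0.34 for TK1, and below it for DCK and SAMHD1. It was also above in 18 of 18 replication fork genes. Among 10734 tested genes with a mean count of at least 100, replicate 4 was above replicate 3 in 53.0%, and among 682 such genes called higher, in 68.3%. Among 567 such genes called lower it was above in 36.9%, so replicate 4 lay further from LNCaP95 more often in both directions. With each library left out in turn, the same 5 members were called, and the log2 fold change ranged from 3.54 to 3.89 for RRM2, 2.53 to 2.87 for TK1, 2.12 to 2.31 for TYMS, 1.13 to 1.36 for RRM1 and 1.02 to 1.19 for DUT.

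The genes whose pattern over the 4 libraries was most like that of RRM2, TYMS and TK1 were found by Euclidean distance between centred log2 CPM values. The search covered 10725 genes outside the 9 with a mean count of at least 100 over the 4 libraries. Some, such as TICRR (32 and 29 counts in LNCaP95 against 343 and 454 in LN95(KO)), reached that mean through LN95(KO). Those nearest to RRM2 were TICRR (distance 0.0462), MYBL2 (0.0760) and ESPL1 (0.0829), with log2 fold changes of 3.73, 3.74 and 3.68. Those nearest to TYMS were ALDH3B2 (0.0595), KNTC1 (0.0638) and NRGN (0.0657), with 2.13, 2.16 and 2.22. Those nearest to TK1 were WDR62 (0.0560), CDCA8 (0.0617) and GTSE1 (0.0689), with 2.71, 2.72 and 2.78. The distances are a description over 4 libraries in 2 groups, with no test, and similar fold changes follow from how the genes were chosen.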

How the data were processed

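Read counts per gene were used as deposited, without normalization. Per the study's methods, hg19 was the genome to which the authors aligned with HISAT2 (2.1.0 in the submitters' processing notes) and counted with htseq on a GENCODE gene set. Per the file names, counting ignored strand, and htseq leaves out reads on more than 1 gene. Ambiguous, unaligned and other summary lines (5 per file) stayed out of library sizes and tests. The series table matched the single files, with 0 cells that differed.

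Groups were compared by edgeR's quasi-likelihood test (edgeR 4.0.16, R 4.3.3) with robust estimation, TMM factors, filterByExpr (minimum count 10, minimum total 15), all 4 libraries and no covariate. P-values were adjusted by Benjamini-Hochberg over 15626 genes. A call needed an adjusted p under 0.05 and a fold over 2. The SE is the absolute log2 fold change divided by the square root of F, and intervals are at 95%. The common biological coefficient of variation was 4.27%. An exact permutation test of 2 against 2 cannot go below 0.333, so none was run. For genes with 0 reads the limit is 3 counts per library, and it covers counting error only. Lengths, coordinates and shared exon bases came from GENCODE release 44 on GRCh37, a later release than the one counted on, so gene models can differ from those behind the counts, and promoters from RefSeq on GRCh38.p14. Scripts were tested on simulated data.

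Alternatives were DESeq2 (1.42.0), other scaling factors and filters, other fold criteria, leaving out each library, and other gene lengths. The members and lists were chosen with earlier results of these data known. From each list the called genes were named, or where 0 were called the largest change. GSR, SHMT1, TXN2, TXNRD2, GLRX2, FZR1, CUL1 and SKP1 were named after their values were seen. Some items are not reported here.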

Additional observations from a re-analysis of the deposited data

Results flagged for a closer look

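Reads outside the gene counts differed between groups. Reads not aligned made up 7.71% of all entries in the lower of the 2 LN95(KO) libraries and 3.96% in the higher of the 2 LNCaP95 libraries. Reads aligned more than once made up 4.12% of aligned reads in the lower LN95(KO) library and 3.96% in the higher LNCaP95 library. The part of either in the counts of the 9 genes was not tested.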

How the results depend on the processing

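No paired analysis was possible because LNCaP95 holds replicates 1 and 2 and LN95(KO) replicates 3 and 4. Over 11 refits per gene (DESeq2, other scaling factors, other filters, a test against a 2-fold change, and each library left out), 99 of 99 fits of the 9 genes kept their direction and 98 kept their side of the call. The exception was DUT against a 2-fold change (glmTreat), at a log2 fold change of 1.11 and an adjusted p of 0.325. Without the fold criterion, 9 members and 9349 of all genes were called, against 5 and 2811, and glmTreat called 1687 genes. With each library left out, 2539 to 2777 genes and 5 members were called, and the log2 fold change of UGT2B17 was −7.09 to −6.98.

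Calls without the fold criterion numbered 5 for nucleotide kinases, 7 for electron donors, 9 for the folate cycle, 5 for pyrimidine synthesis, 9 for purine synthesis, 11 for breakdown, 3 for transporters, 16 at the replication fork and 3 for mitochondrial DNA synthesis. Under glmTreat they were 0 for nucleotide kinases, 1 for folate, 0 for purine synthesis and 4 at the fork. Library totals gave 0 for nucleotide kinases, 2 for electron donors and 2 for breakdown, a filter of 1 CPM in 2 libraries gave 0 for nucleotide kinases, and no filter gave 1 for transporters. With each library left out, calls ranged from 0 to 1 for nucleotide kinases, 1 to 3 for breakdown and 6 to 11 at the fork. The causes were not tested.

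Ratios per kilobase in LNCaP95 moved with gene length, by construction. With the longest transcript they were 0.111 for RRM2 to RRM1, 0.0978 for RRM2 to RRM2B, 3.55 for TK1 to TK2, 1.75 for TK1 to DCK, 0.348 for TYMS to DUT and 0.470 for RRM2 to SAMHD1. With exon bases not shared with another gene, a length chosen after seeing the data, they were 5.54 for TK1 to TK2, 1.72 for TK1 to DCK, 0.653 for TYMS to DUT and 0.336 for RRM2 to SAMHD1. TYMS to DUT in LN95(KO) was then 1.41, above 1, where it was 0.861 by all exon bases.

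With 2 libraries per group, the spread rests on few values, and RNA levels do not show enzyme amounts or deoxynucleotide pools.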
